A study of Mus musculus with 6 samples.

Results

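Kit, its ligand Kitl and 8 further genes known from hemogenic endothelium (Cd34, Gata2, Runx1, Tal1, Lmo2, Hhex, Lyl1 and Mecom) were followed through 6 RNA-seq libraries of mouse endothelial cells. The 10 genes were chosen by symbol from the 24421 genes of the count table, for their known roles. The rule used no measured value, but earlier results of these data were known when the genes were chosen. Hemogenic endothelium is the small part of the embryonic vessel wall from which the first blood stem and progenitor cells bud. Kit, the receptor tyrosine kinase for stem cell factor (Kitl), and the surface sialomucin Cd34 are found on these cells and on the progenitors they give rise to. Gata2, Tal1, Lmo2, Lyl1 and Runx1 are transcriptional regulators that endothelium and blood share, and Runx1 is required for the step from endothelium to blood. After that step Kit stays on blood progenitors and mast cells, and in skin it is also known on melanocytes.

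Blood vessel endothelial cells (BECs) were taken from the skin of E15.5 embryos that were Tie2-Cre(+); Dot1l 2f/2f (cKO) or Tie2-Cre(-); Dot1l 2f/2f (Cont, labelled wild type), as the F4/80-, CD45- and Lyve1- fraction, with RNA of 2 to 3 embryos pooled into 1 library. A figure legend of the study also gives these BECs as positive for CD31. Dot1l is the histone H3K79 methyltransferase, and the study asked which transcripts depend on it. In a cultured BEC line from embryonic yolk sac (CRL-2581) and in cultured embryonic dermal lymphatic endothelial cells (LECs, C57-6064L), Dot1l was overexpressed (OE) by a lentivirus that carries dCas9-VP64, guide RNAs to the Dot1l promoter and EGFP, the controls received empty lentivirus, and EGFP+ cells from 2 to 3 flasks made 1 library. Tie2-Cre is active in endothelium and also in blood cells, both skin groups carried the floxed alleles, and Cre itself cannot be told apart from the loss of Dot1l, nor dCas9-VP64 from the gain. Each of the 6 conditions thus had 1 library, so that no difference could be set against a spread between replicates and every comparison below describes 1 library against 1 other.

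Library totals ran from 8863349 reads (Cont BECs from skin) to 31032461 reads (OE-LECs), and each of the 10 genes had from 144 to 35934 reads in every library. Intervals are exact 95% limits of the counts. They cover counting error only, not the spread between libraries. Reads copied by PCR and carrying no molecular identifier do not each stand for 1 molecule, so the limits may be too narrow even for that error. Dot1l itself was not lower in the library labelled cKO, with 762 reads in Cont BECs and 944 in cKO BECs (log2 ratio -0.07, interval -0.21 to 0.07), and cKO BECs means here the library that carries this label. A count over the whole gene need not show the loss of only the floxed part of a transcript, and the study's own RT-qPCR of Dot1l was not analysed here. Dot1l was 2.78-fold higher in OE-BECs and 2.30-fold higher in OE-LECs than in their controls. Prox1, the defining regulator of lymphatic endothelium, had 0 reads in all 4 cultured libraries, the LEC libraries included, and 1304 and 883 reads in the skin BEC libraries. Ptprc, which encodes CD45, had 1206 and 2340 reads in the 2 skin libraries, Adgre1, which encodes F4/80, had 1719 and 3411, and Lyve1 had 9105 and 19959, although the sort was for cells negative for all of them.

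In the GENCODE M21 annotation of mm10, Kit spans chr5:75574916-75656722 on the plus strand and lies between the related receptor genes Pdgfra, 376.7 kb away, and Kdr, 276.1 kb away. Kitl spans chr10:100015630-100100416, Cd34 chr1:194938819-194961279, Gata2 chr6:88193891-88207032, Tal1 chr4:115056426-115071755, Lmo2 chr2:103957986-103981878, Hhex chr19:37434810-37440731 and Lyl1 chr8:84701457-84704715, all on the plus strand. Runx1 (chr16:92601466-92826149) and Mecom (chr3:29951296-30548008) lie on the minus strand. The whole of Lyl1 lies within Nfix on the opposite strand with 4 bases of exon in common, and Cd34 shares 148 bases of exon with the antisense gene Gm16897. Runx1 shares 106 bases of exon with the antisense gene Gm26626 and Mecom 81 with Mecomos, neither of which is among the counted symbols. Reads were counted with the -S option of VERSE, and the sources used here do not say in words whether strand was used, so reads in those bases could belong to either gene. Nfix and Gm16897 had from 123 to 1195 reads in any library.

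Promoter sequences (250 bases before to 50 bases after the start, RefSeq, GRCm38.p6) were held for 9 of the 10 genes, with 14 starts among them. They are shown for Kit, the gene called lower in both overexpressing lines, for its ligand Kitl, and for the distal and the proximal start of Runx1, the gene with the highest log2 ratio in both. Capitals mark matches, on either strand, to the letters GATAA of the Gata factors, the letters CAGNTG of the E-box that Tal1 and Lyl1 bind, the letters TGTGGT of the Runx factors and the letters GGAAG of the Ets factors. In that order they occurred in 22.3%, 48.9%, 14.5% and 71.9% of 20788 promoters of the same length.
Kit, chr5:75574737-75575036, plus strand: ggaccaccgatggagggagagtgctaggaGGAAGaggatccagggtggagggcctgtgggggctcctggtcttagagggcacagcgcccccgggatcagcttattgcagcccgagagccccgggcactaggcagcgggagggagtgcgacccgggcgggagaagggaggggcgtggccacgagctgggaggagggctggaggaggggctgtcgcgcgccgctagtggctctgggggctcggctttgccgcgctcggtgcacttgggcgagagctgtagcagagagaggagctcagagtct
Kitl, chr10:100015571-100015870, plus strand: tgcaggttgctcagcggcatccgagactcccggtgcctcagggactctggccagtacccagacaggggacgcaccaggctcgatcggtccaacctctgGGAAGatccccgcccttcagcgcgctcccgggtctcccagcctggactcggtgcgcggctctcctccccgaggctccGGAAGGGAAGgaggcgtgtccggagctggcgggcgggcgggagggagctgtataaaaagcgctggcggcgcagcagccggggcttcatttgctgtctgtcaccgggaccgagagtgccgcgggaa
Runx1 distal, chr16:92826025-92826324, minus strand: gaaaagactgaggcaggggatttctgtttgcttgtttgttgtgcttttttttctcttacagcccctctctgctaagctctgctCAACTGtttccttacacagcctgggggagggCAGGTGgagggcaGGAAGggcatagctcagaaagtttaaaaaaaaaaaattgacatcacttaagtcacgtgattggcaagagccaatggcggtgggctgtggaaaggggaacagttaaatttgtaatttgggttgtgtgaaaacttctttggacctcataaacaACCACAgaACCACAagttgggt
Runx1 proximal, chr16:92697280-92697579, minus strand: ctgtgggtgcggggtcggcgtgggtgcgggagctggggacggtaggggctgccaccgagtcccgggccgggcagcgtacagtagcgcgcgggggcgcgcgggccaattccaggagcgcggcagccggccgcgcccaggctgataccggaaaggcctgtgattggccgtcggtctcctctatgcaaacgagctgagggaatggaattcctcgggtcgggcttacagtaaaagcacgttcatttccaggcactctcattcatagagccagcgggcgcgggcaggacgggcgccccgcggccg
The Kit window held 20 CpG and 69% GC, against medians of 13 CpG and 56.7% GC over the 20788 promoters, and 1 Ets match. The Kitl window was of the same kind, with 28 CpG, and held 3 Ets matches. The starts of Runx1 differed from each other. The distal window held 2 CpG and 45% GC with 2 E-box, 2 Runx and 1 Ets matches, and the proximal window held 35 CpG and 69% GC with none of the 4. A match describes letters only. The counts are per gene, so reads of the 2 Runx1 starts were not separated.

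Kit was the gene of the 10 that differed most with Dot1l overexpression, and it was lower in both lines. Its reads numbered 2073 in Cont BECs from skin and 3040 in cKO BECs, 7018 in cultured Cont BECs and 1284 in OE-BECs, and 5756 in Cont LECs and 2034 in OE-LECs. As CPM (counts per 1000000 reads of the library) this was 233.9, 274.3, 396.8, 92.2, 220.4 and 65.5 in the same order. The 2 overexpressing libraries were the lowest of the 6, and the 4 others lay between 220.4 and 396.8 CPM. The intervals of the levels in Cont BECs from skin and Cont LECs overlapped, and those of all other neighbours in the order did not. With TMM factors Cont LECs (223.9 CPM) stood above Cont BECs from skin (208.8 CPM). After normalization of each pair by the median of ratios, Kit in OE-BECs was 4.19-fold lower than in its control (log2 ratio -2.07, interval -2.15 to -1.98). In OE-LECs it was 3.32-fold lower (log2 ratio -1.73, interval -1.81 to -1.66). By the study's rule, a normalized count of at least 3 in the higher library and more than 3 times that of the lower, Kit was thus called lower in both lines. These calls, and that of Lmo2 given below, rest on the fold alone: an exact test of edgeR with an assumed variation of 0.4 between replicates called none of them. With 1 added to each normalized count, 449 of the 14792 genes tested in BECs had a lower log2 ratio than Kit, and 172 of the 13883 in LECs. Kit was slightly higher in cKO BECs than in Cont BECs (1.13-fold, log2 ratio 0.17, interval 0.09 to 0.26), which the rule did not call.

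**Figure D1:**
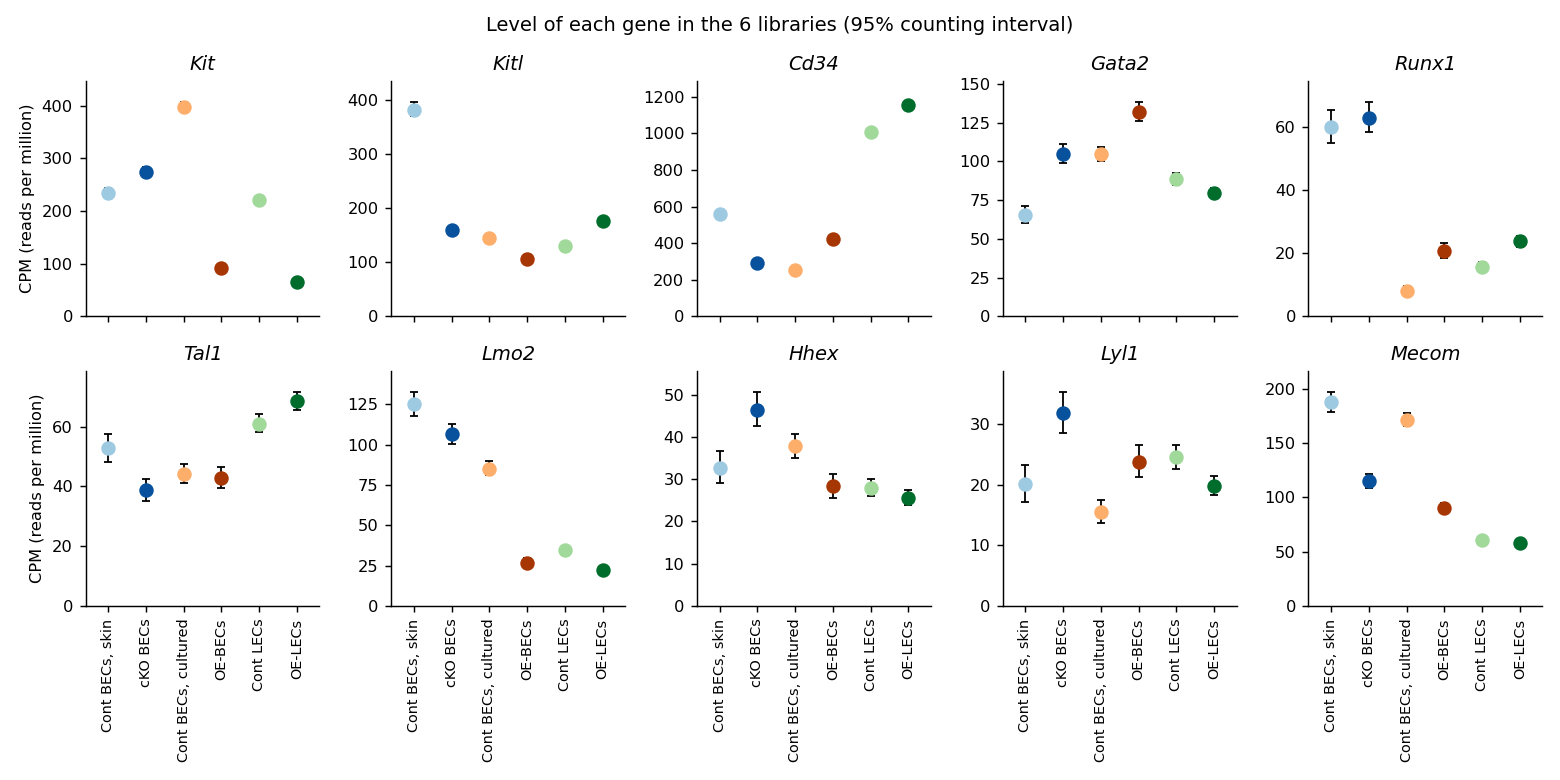
CPM (linear axis from 0) of the 10 genes in the 6 libraries, 1 panel a gene, with exact 95% counting intervals as bars, which are hidden behind the point where narrow. Kit was lowest in the 2 overexpressing libraries (92.2 and 65.5 CPM), and Runx1 was highest in the 2 skin libraries (59.8 and 62.8 CPM).

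Kitl encodes stem cell factor, which endothelium and other tissue cells present to Kit-bearing cells. Its reads were 3384 in Cont BECs from skin and 1766 in cKO BECs, 2568 in cultured Cont BECs and 1480 in OE-BECs, and 3401 in control LECs against 5437 with OE. The skin control stood above the rest at 381.8 CPM, and the 5 other libraries lay between 106.2 and 175.2 CPM. Kitl in cKO BECs was 2.49-fold lower than in Cont BECs (log2 ratio -1.32, interval -1.40 to -1.23), the only one of the 10 genes past 2-fold in that comparison, and below the 3-fold of the rule. With Dot1l overexpression Kitl was lower in the BEC line (log2 ratio -0.41, interval -0.51 to -0.32), whereas in LECs it was higher (0.45, interval 0.38 to 0.51).

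The balance of receptor and ligand transcripts therefore differed between the libraries. Per kilobase of merged exon, Kit had 0.406 times the reads of Kitl in Cont BECs from skin and 1.14 times in cKO BECs. The ratio was 1.81 in cultured Cont BECs against 0.575 in OE-BECs, and 1.12 in Cont LECs against 0.248 in OE-LECs. It was higher in the library labelled cKO than in its control, and lower in both overexpressing libraries than in theirs. The skin difference lay mostly in Kitl (log2 ratio -1.32, against 0.17 for Kit). That of the lines lay mostly in Kit (-2.07 and -1.73). The skin libraries also differed in mast cell and endothelial genes, as given below, and the part of these in the ratio was not tested.

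**Figure D2:**
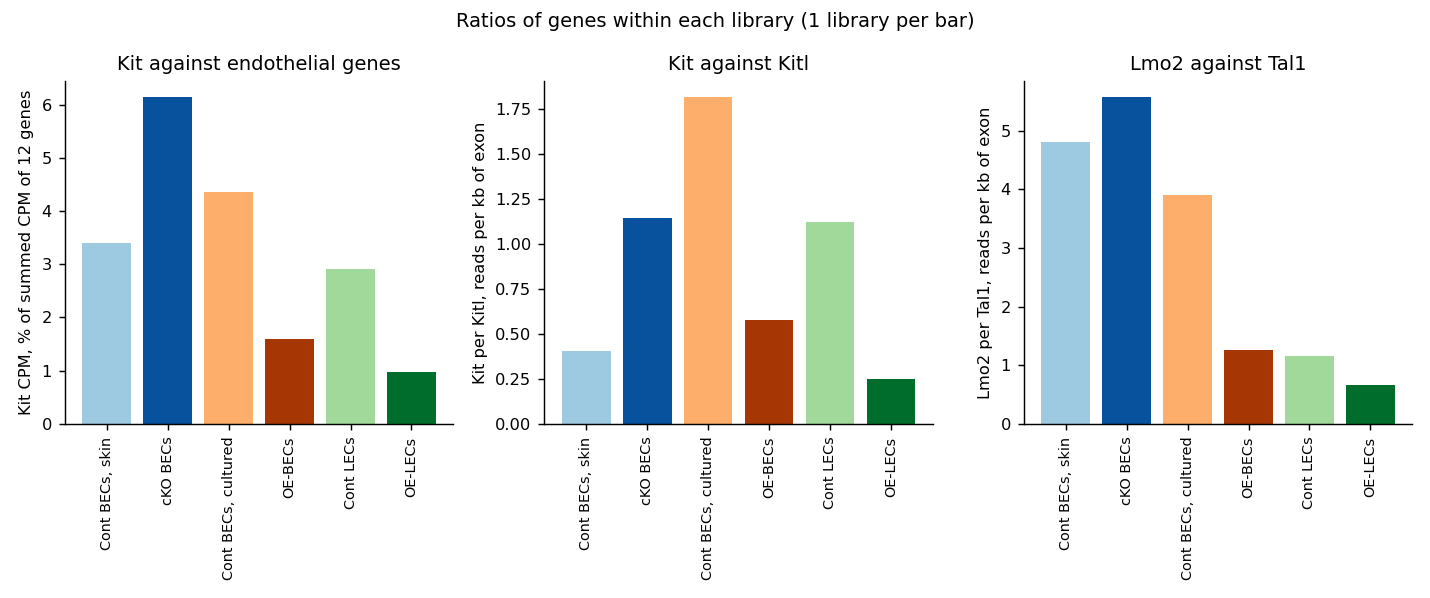
Ratios of genes within each of the 6 libraries, on linear axes from 0, as bars of 1 library each: Kit CPM as a percentage of the summed CPM of 12 blood endothelial genes, Kit per Kitl and Lmo2 per Tal1, the last 2 per kilobase of exon. Kit per Kitl was 0.406 and 1.14 in the skin libraries, and in both cultured lines the OE bar is below its control in all 3 panels.

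Cd34, the sialomucin of progenitors and of capillary endothelium, had 4946 and 3241 reads in the skin control and cKO libraries, 4491 and 5921 in cultured Cont BECs and OE-BECs, and 26370 and 35934 in Cont LECs and OE-LECs. The LEC libraries were the highest (1010 and 1158 CPM), and the counting intervals of all neighbours in the order were apart. The order of the lowest libraries depended on the scaling. With TMM factors cultured Cont BECs (273.6 CPM) stood above cKO BECs (253.6 CPM), and without them below. Cd34 was 1.98-fold lower in cKO BECs (log2 ratio -0.99, interval -1.05 to -0.92), 1.72-fold higher in OE-BECs (0.78, interval 0.73 to 0.84) and 1.16-fold higher in OE-LECs (0.22, interval 0.19 to 0.24). Kit and Cd34, which both mark blood progenitors, differed from their controls in opposite directions in all 3 comparisons.

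Runx1 was the transcriptional regulator with the widest range. Its reads were 530 in Cont BECs from skin and 696 in cKO BECs, 144 in cultured Cont BECs and 287 in OE-BECs, and 404 in control LECs against 734 with OE. The skin libraries stood at 59.8 and 62.8 CPM and the cultured ones between 8.14 and 23.7 CPM, and per kilobase of exon Runx1 was the lowest of the 10 genes in every library. Runx1 did not differ beyond counting error between cKO BECs and Cont BECs (log2 ratio 0.02, interval -0.15 to 0.18). It was 2.60-fold higher in OE-BECs than in their control (log2 ratio 1.38, interval 1.08 to 1.68), past 2-fold with an interval that reached across 3-fold, and 1.55-fold higher in OE-LECs (0.63, interval 0.45 to 0.81).

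Lmo2, Tal1 and Lyl1 encode parts of 1 complex on DNA, in which the LIM-only protein Lmo2 bridges the helix-loop-helix protein Tal1, or its close relative Lyl1, to GATA factors. Lmo2 had 1108 and 1181 reads in the skin control and cKO libraries, 1506 and 371 in cultured Cont BECs and OE-BECs, and 905 and 690 in Cont LECs and OE-LECs. It was lower in OE-BECs by 3.11-fold (log2 ratio -1.64, interval -1.81 to -1.47), just past the 3-fold of the rule, with the interval reaching across it. In OE-LECs it was lower by 1.54-fold (log2 ratio -0.62, interval -0.77 to -0.48), and in cKO BECs by 1.22-fold (-0.29, interval -0.41 to -0.17). OE-BECs (26.6 CPM) thus had less Lmo2 than Cont LECs (34.7 CPM).

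Tal1 did not follow Lmo2. It stood at 52.7 and 38.7 CPM in the skin control and cKO libraries, 44.2 and 42.8 CPM in cultured Cont BECs and OE-BECs, and 61.0 and 68.6 CPM in the LEC pair. The ratio to the control was -0.50 on the log2 scale in cKO BECs (interval -0.69 to -0.31) and 0.19 in OE-LECs (interval 0.09 to 0.28), and in OE-BECs the interval included 0 (-0.01, interval -0.16 to 0.15). Per kilobase of exon, Lmo2 had 3.89 times the reads of Tal1 in cultured Cont BECs and 1.26 times in OE-BECs, and 1.15 and 0.655 times in Cont LECs and OE-LECs. The skin libraries, at 4.80 and 5.57 times, stood highest.

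Lyl1 had the fewest reads of the 3, with 178 and 353 in the skin libraries, 274 and 332 in the BEC line, and 641 and 617 in the LECs. It was higher in cKO BECs (log2 ratio 0.61, interval 0.35 to 0.88) and in OE-BECs (0.66, interval 0.42 to 0.90), but lower in OE-LECs (-0.29, interval -0.45 to -0.12). Lyl1 per Tal1, per kilobase of exon, was 0.927 in Cont BECs from skin and 2.002 in cKO BECs, and between 0.705 and 1.35 in the 4 cultured libraries.

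Gata2, the zinc finger factor that blood progenitors and endothelium share, lay within a 2.01-fold range, from 65.6 CPM in Cont BECs from skin to 131.9 CPM in OE-BECs. With TMM factors Gata2 ranged more widely, from 58.5 to 145.2 CPM in the same libraries. It was 1.54-fold higher in cKO BECs (log2 ratio 0.62, interval 0.48 to 0.77) and 1.29-fold higher in OE-BECs (0.37, interval 0.28 to 0.47), and slightly lower in OE-LECs (-0.13, interval -0.21 to -0.05). Without correction for length, Kit had 3.79 reads for each read of Gata2 in cultured Cont BECs and 0.699 in OE-BECs, and 2.49 and 0.822 in the LEC pair, so Gata2 differed far less than Kit.

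Hhex, a homeobox factor of early endothelium and blood, differed little between libraries (25.6 to 46.5 CPM). It was higher in cKO BECs (log2 ratio 0.45, interval 0.24 to 0.66), lower in OE-BECs (-0.38, interval -0.56 to -0.20), and in OE-LECs the interval included 0 (-0.11, interval -0.26 to 0.04). Mecom, the zinc finger factor also called Evi1 that serves blood stem cells, stood at 188.0 and 114.8 CPM in the skin pair, 171.5 and 90.1 CPM in the BEC pair and 60.9 and 57.7 CPM in the LEC pair. It was lower by 1.70-fold in cKO BECs (log2 ratio -0.77, interval -0.87 to -0.66) and by 1.85-fold in OE-BECs (-0.89, interval -0.99 to -0.79), while the LEC pair did not differ beyond counting error (-0.06, interval -0.16 to 0.04). Both BEC comparisons thus had lower Mecom, although Dot1l was raised in 1 of them and labelled as deleted in the other.

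**Figure D3:**
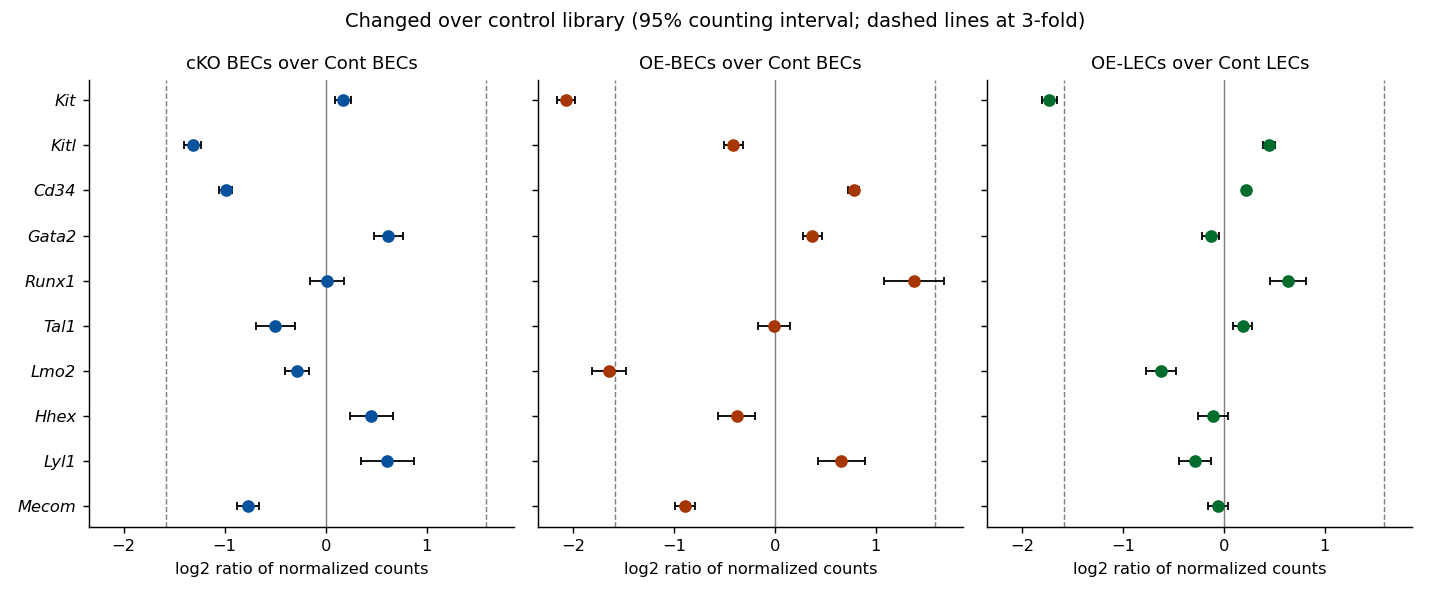
Log2 ratio of normalized counts, changed over control library, of the 10 genes in the 3 comparisons, with exact 95% counting intervals as bars and dashed lines at 3-fold. Kit lies beyond the lower line in OE-BECs (-2.07) and OE-LECs (-1.73), Lmo2 at it in OE-BECs (-1.64), and in cKO BECs Kitl is the lowest (-1.32).

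Counted by the rule, 0 of the 10 genes were called higher and 0 lower in cKO BECs, where the higher normalized count had to be at least 5. Over the 15993 genes tested there, 5.17% were called higher and 2.41% lower. In OE-BECs 0 were called higher and 2 lower (Kit and Lmo2), against 8.02% and 5.27% of all genes tested, and in OE-LECs 0 higher and 1 lower (Kit), against 2.77% and 2.09%. With more than 2-fold, the counts were 0 higher and 1 lower in cKO BECs (10.4% and 5.23% of all), 1 higher and 2 lower in OE-BECs (11.4% and 8.81%), and 0 higher and 1 lower in OE-LECs (4.98% and 4.26%). With so few genes these shares say little about the group. The table also holds many genes of few reads, which pass a fold more easily. Where at least 1 library of the pair had 100 normalized counts or more, as was so for all 10, 1.55% of genes were called lower in OE-BECs and 0.238% in OE-LECs. The median log2 ratio of the 10 genes was -0.14, -0.19 and -0.08 in cKO BECs, OE-BECs and OE-LECs, where that of all genes tested was between 0.00 and 0.01. In the same order the genes fell on both sides, with 5 genes above and 5 below 0, then 4 and 6, then 4 and 6. Of all genes tested, 50.5%, 50.8% and 50.6% lay above 0. The interval excluded 0 for 9, 9 and 8 of the 10 genes. The share of all genes for which it did was not computed. With so many reads per gene a small difference is enough, so this count says little about the group.

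The other genes of the pathway came from lists of known function. Of 25 genes of Kit signalling (adaptors, kinases, phosphatases and ligases below the receptor), all 25 passed the minimum in BECs, and 24 in LECs. None was called in cKO BECs or OE-LECs, and 1 was called lower in OE-BECs, the protease gene Mmp9, 5 reads against 0, too few for a fold. The median log2 ratio of the list was -0.06, 0.04 and -0.01 in cKO BECs, in OE-BECs and for the LECs. The list's genes with the most reads, the kinase gene Akt1 and the signal transducers Plcg1 and Ptpn11, lay between -0.62 (Plcg1 in OE-BECs) and 0.30 (Akt1 in OE-BECs) on the log2 scale. In cKO BECs the genes of the blood cell phosphatase Ptpn6 (617 and 1452 reads, log2 ratio 0.86, interval 0.72 to 0.99) and of the leukocyte kinase Pik3cd (421 and 1145 reads, 1.07, interval 0.90 to 1.23) were higher, and both had at most 20 reads in any cultured library. These 2 were picked after their values were seen, and of the 25 genes 10 lay above 0 and 15 below in cKO BECs. Of the 5 related receptor genes (medians -0.44, 0.88 and 0.16), none was called, and Kdr, the neighbour of Kit, was lower in cKO BECs (15527 and 10102 reads, 1.997-fold). In the same pair the macrophage receptor gene Csf1r (3866 and 6218 reads) stood at 0.31 and the mural cell receptor gene Pdgfrb (1461 and 1404 reads) at -0.44.

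Of 22 other regulators of hemogenic endothelium and early blood, 20 passed the minimum in the skin pair, 17 in the BEC line and 13 in LECs. Gata1, the erythroid and mast cell factor, was called higher in cKO BECs, from 17 to 76 reads (log2 ratio 1.78, interval 1.01 to 2.63), and had 0 reads in the cultured libraries. In OE-BECs 5 were called higher, among them Gata3, Hlf, Ikzf1 and Hoxa9, each with at most 23 reads in either library. The medians of this list were -0.06, -0.16 and -0.30 in the 3 comparisons. The list's genes with the most reads were the Ets factors Fli1 and Erg and the helix-loop-helix factor Tcf12, which pairs with Tal1. Fli1 was lower in OE-BECs (6539 and 3272 reads, log2 ratio -0.62, interval -0.68 to -0.56) and in LECs with OE (4621 and 3682 reads, -0.56, interval -0.62 to -0.50). Erg (-0.27 and -0.44) and Tcf12 (-0.16 and -0.14) were also lower in both lines, and none of the 3 was called. The SOX factor Sox17 was lower in OE-BECs (2796 and 1100 reads, log2 ratio -0.96, interval -1.06 to -0.86). Cbfa2t3, whose product joins the Tal1 and Lmo2 complex, was lower in OE-BECs (1057 and 317 reads, log2 ratio -1.35, interval -1.54 to -1.17). It was picked after its value was seen. Of the list's 17 genes tested in OE-BECs, 8 lay above 0 and 9 below. Among them Ldb1 stood at -0.22, Tcf3 at 0.44 and Zfpm1 at 0.13. Of 12 family members of the 10 genes, 1 was called higher in cKO BECs (Gata1) and 2 in OE-BECs (Gata3 and Gata4, from 33 to 76 reads), and none in OE-LECs, with medians of 0.36, 0.78 and 0.33. The family members with the most reads, Lmo1, Lmo4 and Runx2, had log2 ratios from -0.45 (Lmo1 in cKO BECs) to 0.64 (Runx2 in cKO BECs). Of 12 further surface proteins of blood progenitors, 1 was called higher in OE-LECs (Spn, from 5 to 18 reads) and none elsewhere, with medians of -0.47, 0.23 and 0.09. Those with the most reads were Ly6a (Sca-1), Cd93 and Procr, the endothelial protein C receptor. Procr was higher with OE in BECs (3510 and 5396 reads, interval 0.94 to 1.07) and LECs (14083 and 25975 reads, interval 0.62 to 0.68), Cd93 was lower in cKO BECs (11400 and 9001 reads, log2 ratio -0.72), and Ly6a had 66 and 38 reads in the skin pair and 2601 or more in culture. Cd44, the hyaluronan receptor, was higher in OE-BECs (783 and 1636 reads, log2 ratio 1.45, interval 1.32 to 1.57) and OE-LECs (3273 and 6871 reads, 0.84, interval 0.78 to 0.90).

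Markers of other cells bear on the skin pair, since mast cells, melanocytes, macrophages and fibroblasts are all known in embryonic skin and mast cells carry Kit and Gata2. All 12 mast cell genes had reads in both skin libraries. Cpa3, the mast cell carboxypeptidase, had 10969 reads in Cont BECs and 19211 in cKO BECs, the chymase Cma1 5953 and 11453, and the histamine enzyme Hdc 4344 and 8021. In the cultured libraries the 12 genes together stood at 3.87 to 10.9 CPM, with 7 to 9 of them at 0, Cma1 at 0 or 1 read and Cpa3 at 0 to 4. In skin they came to 2862 CPM in Cont BECs and 4117 CPM in cKO BECs, and 9 of the 12 were higher in cKO BECs (median log2 ratio 0.30). Mrgprb1 was called lower in cKO BECs, from 191 to 4 reads. Kit, Gata2, Hhex and Lyl1 were higher in the same library, and the part of mast cell RNA in that was not tested. In the cultured lines Kit had from 1284 to 7018 reads beside Cpa3 and Cma1 at or near 0.

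The 12 macrophage genes summed to 3837 CPM in Cont BECs from skin and 6127 CPM in cKO BECs, with 11 of 12 higher in cKO BECs (median log2 ratio 0.71), and to between 35.8 and 96.6 CPM in culture. Mrc1, the mannose receptor gene, had 22493 and 43350 reads in the skin pair and at most 11 in culture, and Cd68 had 543 and 1319 in the skin pair and from 448 to 2488 in culture. Spi1, Myb and Ikzf1, regulators of blood cells, were also higher in cKO BECs, with log2 ratios of 0.45, 0.69 and 0.49, and had from 0 to 8 reads in any cultured library. They were picked from the list of 22 other regulators. Of its 20 genes tested in cKO BECs, 9 lay above 0 and 11 below. Runx1, which macrophages and mast cells also express, was highest in the 2 skin libraries, and the part of these cells in that was not tested. The 8 megakaryocyte genes summed to 176.0 and 309.3 CPM in the skin pair, with 5 of 8 lower in cKO BECs, where Pf4 was higher (1331 and 3118 reads), Itga2b had 73 and 74 reads, Gp1ba had 91 and 130, and Gp1bb was called lower (5 and 1 reads). Of 10 erythroid genes 1 was called higher in cKO BECs, the embryonic globin Hbb-y, from 18 to 249 reads, Alas2 had 164 and 201 reads, Epor had 53 and 65, and the 4 other globin genes listed had 0 reads in all 6 libraries. Of 9 melanocyte genes, Mitf had 349 and 730 reads in the skin pair, Sox10 29 and 64, Dct 46 and 23 and Tyr 4 and 7, and the list's sum came mostly from the endothelin receptor gene Ednrb, which endothelium shares. Ednrb was called lower in both overexpressing lines (13428 and 1213 reads in BECs, 5216 and 1544 in LECs), as Kit was. The 9 fibroblast genes summed to 2556 and 1895 CPM in the skin pair, with 7 of 9 lower in cKO BECs (median log2 ratio -0.45), and to at most 20.5 CPM in culture. The collagen genes Col3a1, Col1a2 and Col1a1 stood at -0.45, -0.57 and -0.58 in cKO BECs. Of 9 keratinocyte genes 2 were called higher in cKO BECs, Krt1 (33 and 254 reads) and Krt10 (51 and 263 reads), while Krt15 had 281 and 1027 reads and Krt5 317 and 460. The median log2 ratio in cKO BECs was -0.20 for the megakaryocyte, -0.08 for the erythroid, 0.69 for the melanocyte and 0.04 for the keratinocyte genes. Apart from Ednrb, the genes of these and the lymphatic list that were called in a cultured line had at most 72 reads. Hdc, Lyz2 and Mmrn1 were called lower in OE-BECs, Klf1, Gp1bb, Col1a2, Dpt, Twist2, Trp63 and Cdh1 higher in OE-BECs, and of these Hdc was higher and Klf1 lower in OE-LECs.

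Endothelial genes stood the other way in the skin pair. The 12 blood endothelial genes summed to 6896 CPM in Cont BECs and 4470 CPM in cKO BECs, with 10 of 12 lower in cKO BECs (median log2 ratio -0.66), as Kitl, Cd34, Mecom, Tal1 and Lmo2 were. The genes with the most reads in this list were Cdh5 (log2 ratio -0.70), Pecam1 (-0.71) and Egfl7 (0.21). Fewer cells of a type and less RNA per cell cannot be told apart in such libraries. Set against that sum, Kit was 3.39% in Cont BECs from skin and 6.14% in cKO BECs, while Cd34 was 8.09% and 6.54%. Cd34 was thus 1.98-fold lower in the library as a whole and closer to its control within the endothelial sum. In the BEC line the sum was 9111 CPM in the control and 5783 CPM in OE-BECs, with Flt1 and Cldn5 called lower. Kit was 4.36% of it in cultured Cont BECs and 1.59% in OE-BECs, and in the LEC pair, where the sum was 7594 and 6712 CPM, it was 2.90% and 0.976%. Kit was therefore lower in both lines relative to the endothelial genes as well. Against Cdh5 alone, the gene of the endothelial cadherin, Kit stood at 11.9% and 4.81% in the BEC line and at 11.3% and 3.48% in LECs. The 8 lymphatic endothelial genes summed to 2305 and 2339 CPM in the LEC pair, most of it Lyve1, with 4 and 3 of the 8 at 0, and to 945.3 and 1364 CPM in the BEC line. In the skin pair Nrp2 had 7605 and 6120 reads and Mmrn1 7399 and 9109.

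**Figure D4:**
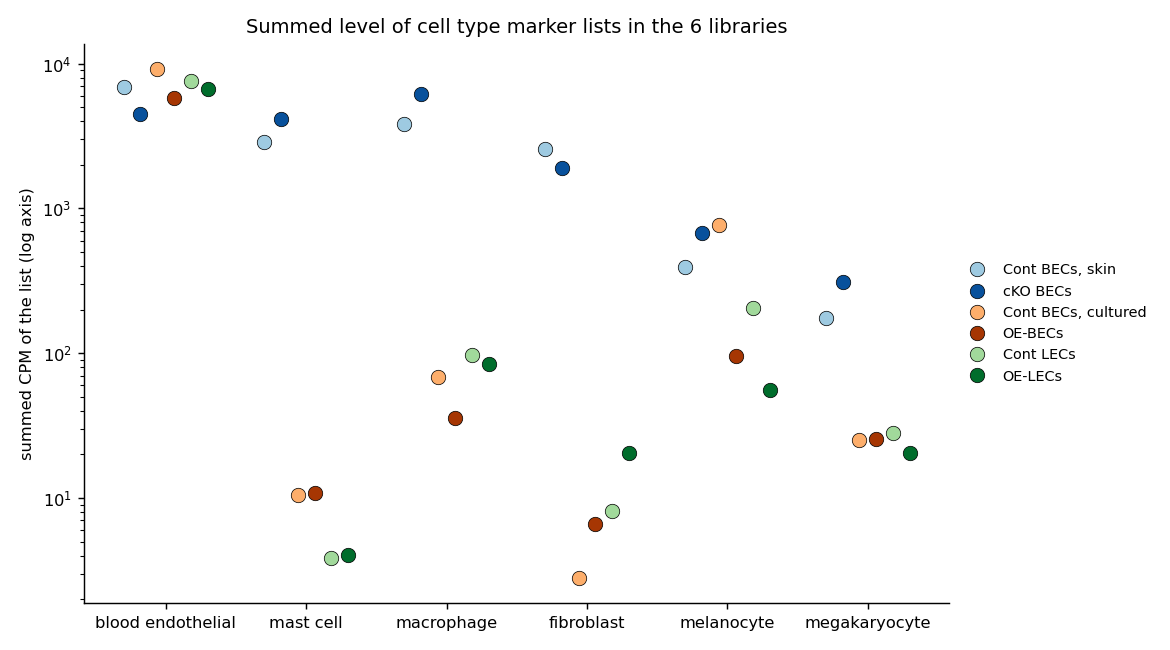
Summed CPM, on a log axis, of marker genes of 6 cell types in the 6 libraries, 1 point a library. The mast cell, macrophage and fibroblast sums of the 2 skin libraries lie at 1895 CPM or above, and those of the cultured libraries at 96.6 CPM or below.

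The genes with the profile most like that of Kit over the 6 libraries were found among 11898 genes with at least 100 reads in a library, by the root mean square difference of centred log2(CPM + 1). The nearest was Clca2 (difference 0.22), a chloride channel accessory protein, followed by F8 (0.23), coagulation factor VIII, Csrp2 (0.24), Pde2a (0.29) and Trp53i11 (0.35). F8, which endothelium makes, stood at 35.4 and 39.4 CPM in the skin control and cKO libraries, at 76.6 and 16.7 CPM in the BEC line without and with OE, and at 43.9 and 7.93 CPM in the LECs. As with Kit, the highest was cultured Cont BECs and the 2 lowest were the overexpressing libraries. For Kitl the nearest was Klf11 (0.16), for Cd34 Polr2h (0.19), for Gata2 Ccdc122 (0.09), for Tal1 Cyb5rl (0.05), for Lmo2 Sdr39u1 (0.13), for Hhex Vps8 (0.05), for Lyl1 Spdl1 (0.10) and for Mecom Ptpn4 (0.14). Within the 10 genes, Lmo2 was nearest to Kit (difference 0.57, Pearson correlation 0.82 over 6 libraries), and Cd34 and Lmo2 lay farthest apart (1.63). The 6 points come from 3 cell sources, and such likeness is a description.

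**Figure D5:**
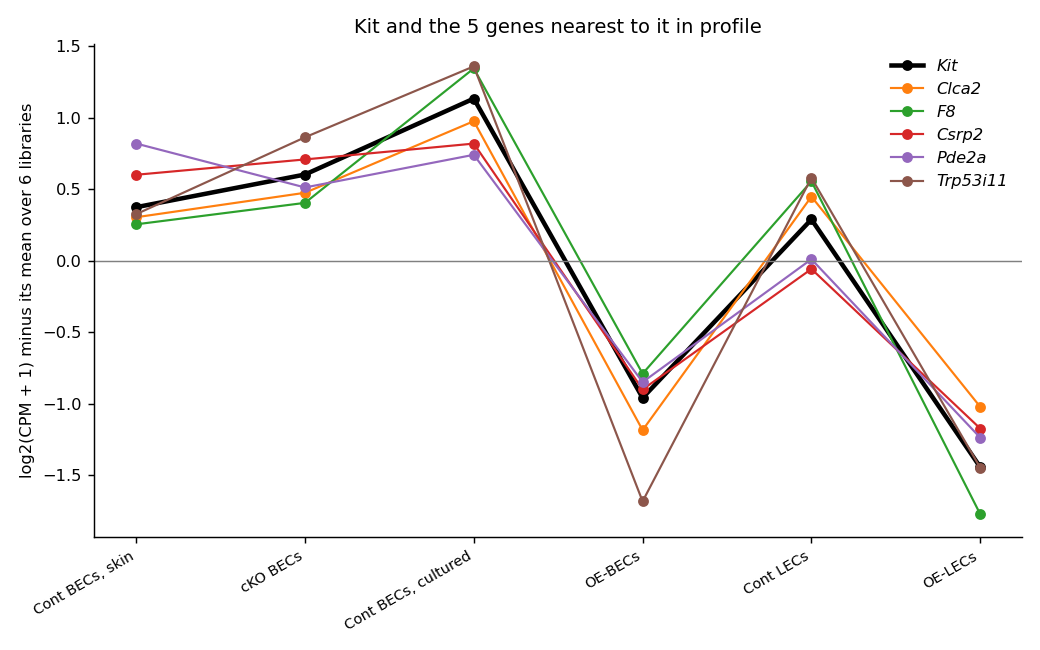
Centred profiles, log2(CPM + 1) minus the gene's own mean over the 6 libraries, of Kit (black) and of the 5 genes nearest to it, with lines joining libraries that have no order. All 6 genes are highest in control or skin libraries and lowest in OE-BECs or OE-LECs.

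Levels between genes were compared per kilobase of exon. In cultured Cont BECs Kit was the highest of the 10 genes (44.5 CPM per kb), followed by Lmo2 (39.3) and Cd34 (34.8), and in OE-BECs Cd34 was the highest (58.3 CPM per kb), Gata2 was next (24.4), and Kit was in place 6 (10.3). In LECs Kit went from place 2 (24.7 CPM per kb in the control) to place 7 (7.36). In the skin pair it stood in place 4 in Cont BECs and place 3 in cKO BECs, with Cd34 (76.5 CPM per kb) highest in the control and Lmo2 (49.2 CPM per kb) in the library labelled cKO.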

How the data were processed

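The deposited values are raw counts of reads per gene for 24421 gene symbols in 6 libraries. They were made by the authors from ScriptSeq v2 libraries by adapter trimming (skewer 0.2.2), alignment to mm10 (STAR 2.7.9a) and counting (VERSE 0.1.5, option -S). The RefSeq promoter table and GENCODE M21 matched 9 and 10 of the 10 genes. Conditions followed the labels together with the study's methods. The 10 genes and all lists were chosen with earlier results of these data known. All 10 were named. Of the lists, genes called in a comparison (at most 4 for each list and comparison) and the 3 with the most reads in each list were named. Sox17, Cbfa2t3, Ldb1, Tcf3, Zfpm1, Cd44, Ptpn6, Pik3cd, Spi1, Myb, Dct and Tyr were named after their values were seen. Size factors were the median of ratios of DESeq2 1.42.0 (R 4.3.3) on the 2 libraries of each pair. By the study's rule more genes were called here than the study reports, in every comparison and direction, so its calls were not reproduced exactly. With 1 library per condition the calls come from the fold and no test, and the only test run was an alternative with an assumed variation. Log2 ratios have exact Clopper-Pearson 95% intervals on the reads of both libraries, and CPM has exact Poisson 95% intervals. Medians of log2 ratios, and the place of Kit among all genes tested, were taken with 1 added to each normalized count. The script was tested on simulated counts. Alternatives were other scalings, a minimum of 20, a fold of 2, 1 added before the ratio and an exact test of edgeR 4.0.16 with an assumed variation. The gene nearest to Runx1 in profile is not reported here.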

Additional observations from a re-analysis of the deposited data

Results flagged for a closer look

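3 of the 10 genes stood on opposite sides of their controls in OE-BECs and OE-LECs, with counting intervals that excluded 0 in both lines. The share of all genes that did so was not computed, so the count is not a result about the group. At these read numbers a small difference is enough, as for Gata2 in OE-LECs (log2 ratio -0.13). The log2 ratio in BECs minus that in LECs was -0.86 for Kitl, 0.50 for Gata2 and 0.95 for Lyl1. Each line has 1 library per condition, so the difference between the lines was not tested against any spread between replicates.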

How the results depend on the processing

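Scaling by size factors from all 6 libraries, by TMM factors, by total counts, or by totals without Rn45s and small RNA genes, a minimum of 20 normalized counts, and 1 added before the ratio gave the same counts of called genes in all 3 comparisons, and the same genes: Kit and Lmo2 in OE-BECs and Kit in OE-LECs. With a fold of 2 in place of 3, 1 gene was lower in cKO BECs (Kitl) in place of 0, and 1 was higher in OE-BECs (Runx1) in place of 0. An exact test (edgeR) in which the variation between replicates was assumed at a coefficient of 0.4, not measured, called 0 genes lower in OE-BECs in place of 2 and 0 in OE-LECs in place of 1, at an adjusted p threshold of 0.05. The 5 genes nearest to Kit were the same with a pseudocount of 0.1. No scaling moved the median of all genes by more than 0.06 on the log2 scale. The log2 ratio of Tal1 in OE-BECs, whose interval includes 0, changed sign under 2 scalings. No paired analysis was possible because each condition has 1 library. For the same reason no library could be left out, and depth bounds only the counting error, which was widest for Runx1 in OE-BECs (144 and 287 reads).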
